A study of Homo sapiens with 12 samples.

Results

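The trefoil factors TFF1, TFF2 and TFF3 and the anterior gradient proteins AGR2 and AGR3 are 5 of the genes that the tables of 19907 gene symbols could hold, and they were looked up by symbol in all 12 libraries. TFF1, TFF2, TFF3 and AGR2 are listed in each table, whereas AGR3 is not listed in the tables used here and was not analysed. The group was selected on measured values of the comparison between the 2 cell lines, in 1 of which TFF3 and AGR2 were known to be near 0. The difference between the lines is therefore described for these genes without a test, and tests were kept for their response to TGFβ1.

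Trefoil factors are small secreted peptides built around a trefoil domain, a compact fold held by disulfide bonds. They are released with mucins by gastric and intestinal epithelia, where they aid the repair of the mucosal surface. AGR2 and AGR3 are protein disulfide isomerase relatives of the secretory pathway, and AGR2 is needed for the folding of intestinal mucin. In the breast, TFF1, TFF3, AGR2 and AGR3 are known as genes of estrogen receptor-positive, luminal tumors.

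RNA-seq was performed in MDA-MB-231 cells, an established human triple-negative breast cancer line of mesenchymal-like character that lacks estrogen receptor. Cells expressing the unmodified glucocorticoid receptor (wt-GR) were a clone that had passed through the same CRISPR procedure without being edited, and S134A-GR cells were 1 clone in which both NR3C1 alleles encode alanine in place of Ser134. Both were starved for 18 h in IMEM with 1% DCC, a steroid-depleted serum, and were then kept for 6 h with vehicle or with TGFβ1 at 10 ng/mL, which gave 4 groups of 3 libraries. As each line is 1 clone, the effect of the mutation cannot be told apart from a difference between clones, and as the labels do not say that the libraries came from separate cultures, p-values measure only the spread between these libraries, which may be technical.

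The libraries held 56362036 to 129832227 reads assigned to genes. Values are normalized counts, that is, reads divided by a size factor for each library, and 3 reads correspond to 2.15 to 4.89 normalized counts depending on the library. Transcripts of NR3C1, the edited gene, were present in every group, at 11771 ± 1186 normalized counts in wt-GR vehicle, 10775 ± 478 in wt-GR TGFβ1, 8815 ± 259 in S134A-GR vehicle and 8692 ± 612 in S134A-GR TGFβ1 (mean ± SD, n = 3). A gene level cannot show the edited codon. All 12 mesenchymal-like genes checked, among them VIM and CD44, were listed and tested, and their summed level lay between 1.03e+06 and 1.53e+06 normalized counts in every library.

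The 3 trefoil genes lie side by side on the minus strand of chromosome 21, at chr21:42311667-42315409 for TFF3 (ENSG00000160180), chr21:42346357-42350997 for TFF2 (ENSG00000160181) and chr21:42362282-42366535 for TFF1 (ENSG00000160182) in GRCh38, a cluster of 54.9 kb. AGR2 (ENSG00000106541) lies at chr7:16791811-16833433 and AGR3 (ENSG00000173467) at chr7:16859412-16881987, also on the minus strand, and together they span 90.2 kb. By the GENCODE 44 annotation the canonical transcripts have 3 exons in TFF3, 4 in TFF2, 3 in TFF1 and 8 in AGR2, and no annotated gene overlaps any of these 4. No stretch of 75 bases, the read length, was shared between the transcripts of any of these genes and those of another gene.

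The promoter table held AGR2 and AGR3, not TFF1, TFF2 or TFF3. A window around a RefSeq start of AGR2, at chr7:16804950-16805249 on the minus strand (GRCh38.p14), is shown. AGR2 was taken because it had the highest normalized count of the group in wt-GR cells and the largest estimated change under TGFβ1. This start lies inside the GENCODE span given above, which on the minus strand begins at 16833433. Which start these cells used was not tested. The window covers 250 bases before the RefSeq start and 50 from it, and the capital marks the first transcribed base.
AGR2: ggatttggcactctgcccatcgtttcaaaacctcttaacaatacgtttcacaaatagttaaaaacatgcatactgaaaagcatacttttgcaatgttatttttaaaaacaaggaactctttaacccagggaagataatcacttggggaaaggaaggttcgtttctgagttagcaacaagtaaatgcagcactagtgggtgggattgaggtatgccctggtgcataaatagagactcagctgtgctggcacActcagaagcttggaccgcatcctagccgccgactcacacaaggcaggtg
The window has a GC content of 43.7%, against a median of 58.7% over 35116 promoters of the same length. Searched on both strands, it held none of GGTCA (1 arm of an estrogen response element, present in 37.4% of all promoters), AGAACA (1 arm of a glucocorticoid response element, 14.8%), TGTTTAC (forkhead, 3.42%), TGANTCA (AP-1, 7.71%), ACGTG (21.4%), CAGAC (the SMAD box, 45.3%), TATAAA (11.5%) or the full estrogen response element. These letters not being in this window says nothing about the factors themselves.

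In wt-GR cells, all 4 listed genes were detected in every library, and in S134A-GR cells their reads were few or absent. AGR2 was at 1134, 1203 and 1185 normalized counts in the wt-GR vehicle libraries and at 571.0, 585.8 and 603.9 in the wt-GR TGFβ1 libraries. In S134A-GR cells it was at 15.1, 0 and 7.13 under vehicle and at 5.71, 0 and 1.43 under TGFβ1. The lines did not overlap under either treatment, and the second S134A-GR library held no AGR2 read in either treatment. Over the pooled reads, AGR2 was 155.7-fold higher in wt-GR cells under vehicle (exact 95% counting interval 104 to 243, 2959 against 24 reads) and 252-fold higher under TGFβ1 (128 to 585, 1907 against 8 reads).

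TFF3 was at 518.1, 521.0 and 692.8 normalized counts in wt-GR vehicle and at 471.0, 422.5 and 404.3 in wt-GR TGFβ1. In S134A-GR cells, 1 of the 6 libraries held TFF3 reads, the third vehicle library with 2 reads (1.78 normalized counts). Under vehicle the wt-GR level was 928-fold higher (256 to 7668), and under TGFβ1, where no S134A-GR read was found, it was at least 493-fold higher, taking 3 reads over the group as the limit that a count of 0 allows. The exact 95% interval, which is two-sided, starts lower, at 401, and at 200.02 if the reads are halved. TFF3 encodes the trefoil peptide of intestinal goblet cells.

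TFF2, known from the mucous neck cells of the stomach, was at 86.4, 117.3 and 159.0 normalized counts in wt-GR vehicle and at 77.8, 81.3 and 84.5 in wt-GR TGFβ1. None of the 3 S134A-GR vehicle libraries held a TFF2 read, and under TGFβ1 the first library held 2. The wt-GR level was at least 133-fold higher under vehicle by the same limit of 3 reads (exact interval from 107, and from 53.1 with reads halved) and 139.7-fold higher under TGFβ1 (38.3 to 1160). TFF2 was thus, like TFF3, at or under 3 reads in every S134A-GR library.

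TFF1, the gastric surface peptide and a classic estrogen-induced gene, was the lowest of the 4 in wt-GR cells and the one with the smallest ratio between the lines. It was at 17.9, 33.8 and 35.8 normalized counts in wt-GR vehicle, at 17.8, 25.6 and 19.4 in wt-GR TGFβ1, at 3.77, 4.05 and 0 in S134A-GR vehicle and at 1.90, 2.02 and 1.43 in S134A-GR TGFβ1. The lines did not overlap, and the wt-GR level was 12.2-fold higher under vehicle (5.87 to 29.2) and 12.3-fold higher under TGFβ1 (5.397 to 34.8). It was also the one gene of the 4 with a read in 5 of the 6 S134A-GR libraries.

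**Figure D1:**
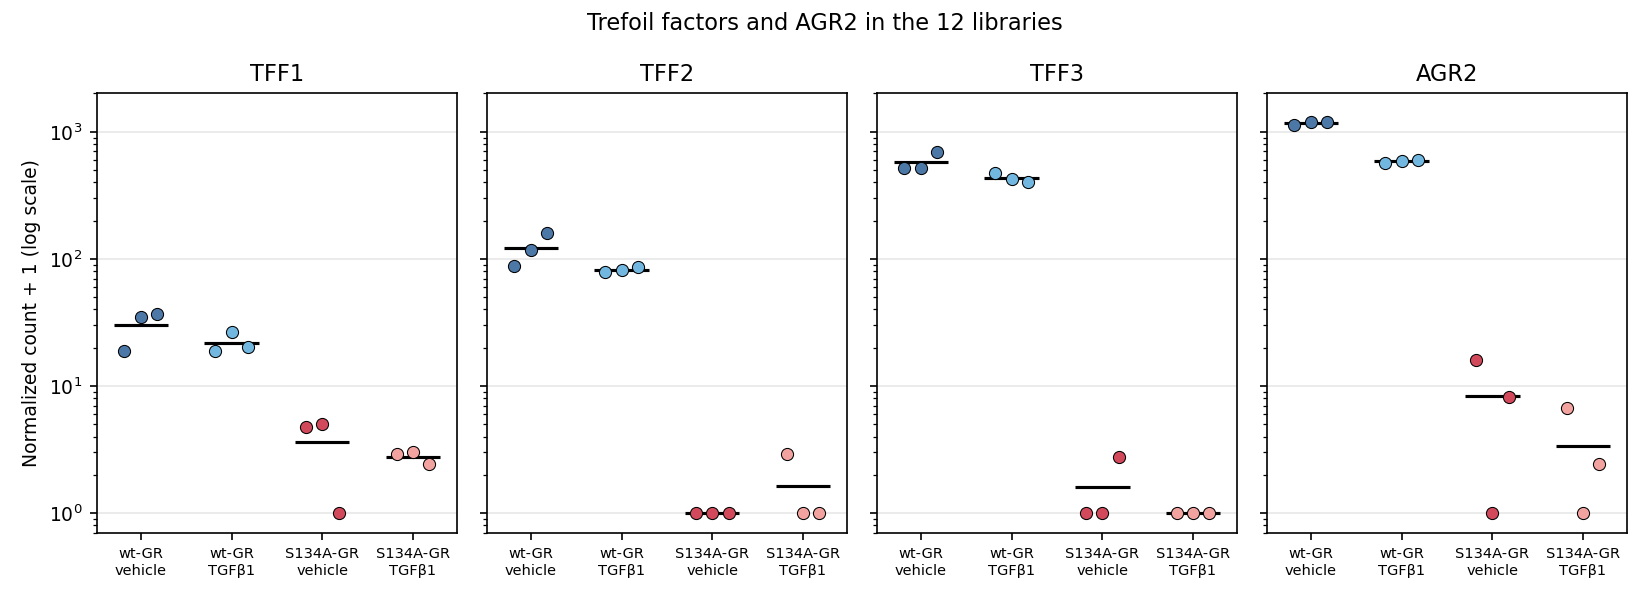
Normalized count plus 1 (log scale) of TFF1, TFF2, TFF3 and AGR2 in each library of the 4 groups. Points are libraries, horizontal bars are the group means, and points at 1 are libraries with no read. For each gene, every wt-GR library lies above every S134A-GR library.

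All 4 genes were thus higher in wt-GR cells without overlap, in the comparison that the choice of the group had used. The share of all genes without overlap between the lines was not counted. Over all 18579 genes tested, 4.45% were called lower and 5.06% higher in S134A-GR cells under vehicle, and 4.58% and 3.88% under TGFβ1 (adjusted p under 0.05 together with a change of at least 1 on the log2 scale). Each of the 24 S134A-GR read counts of these genes was even, 13 of them 0 and the highest 16, whereas 11 of the 24 wt-GR counts were even. Among all values of 1 to 20 reads, 58.6 to 61.5% per library were even. How the mates of a read pair were counted is not given in the sources used here, and if each was counted singly the intervals are too narrow. With reads halved, the intervals under vehicle were 4.32 to 46.3 for TFF1, 166 to 36668 for TFF3 and 88.9 to 302 for AGR2. In bulk libraries such as these, fewer cells with a transcript and less RNA per cell cannot be told apart.

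For comparison between genes, levels were divided by the length of the canonical transcript. Under vehicle in wt-GR cells, AGR2 was at 692 ± 20.96 normalized counts per kb and TFF3 at 666 ± 115, followed by TFF2 at 200 ± 60.4 and TFF1 at 59.3 ± 19.9 (mean ± SD, n = 3). The ranges of AGR2 and TFF3 overlapped, and those of TFF3, TFF2 and TFF1 did not. AGR2 and TFF3 lay above 63.9% and 63.3% of the 17687 genes with a length, TFF2 above 47.2% and TFF1 above 36.8%. Under TGFβ1 the order per kb of AGR2 and TFF3 changed, to 499 ± 39.8 for TFF3 and 346 ± 9.72 for AGR2 without overlap, and TFF2 (135 ± 5.61) and TFF1 (42.5 ± 8.45) followed.

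The response to TGFβ1 was not used to choose these genes. In wt-GR cells all 4 had a negative estimate, and none passed the test in the model of all 4 groups (limma on log2-transformed normalized counts with a pseudocount of 1, adjusted over 18579 genes), where 9.82% of genes were called lower and 11.2% higher. Without adjustment the p-values of all 4 were above 0.05, and edgeR and DESeq2 each called 1 of them. The log2 fold change was -0.999 for AGR2 (SE 0.796, 95% interval -2.71 to 0.71, adjusted p = 0.439), -0.53 for TFF2 (SE 0.426, adjusted p = 0.448), -0.40 for TFF3 (SE 0.357, adjusted p = 0.491) and -0.42 for TFF1 (SE 0.556, adjusted p = 0.669). For AGR2, TFF2 and TFF3 each TGFβ1 library lay below each vehicle library, and the share of all genes that separated in this way was not counted. An exact two-sided permutation test over the 6 libraries gave p = 0.1 for each of these 3 genes, the smallest p that 3 against 3 libraries allow, and p = 0.3 for TFF1, whose groups overlapped.

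The AGR2 call depended on the model. On the log2 scale the SD of AGR2 was 0.044 and 0.040 in wt-GR vehicle and TGFβ1, against 2.09 and 1.37 in the S134A-GR groups, where the values ran from 0 to 16 reads. With only the wt-GR libraries in the limma model, AGR2 was called lower under TGFβ1 at the same estimate of -0.999 (adjusted p = 5.47e-05). It was also called by edgeR's quasi-likelihood test on the recovered reads (adjusted p = 0.0119 with TMM and 0.0114 with RLE scaling) and with a pseudocount of 16 (adjusted p = 0.00287). DESeq2 (adjusted p = 0.351) and the remaining alternatives did not call it. Over the pooled reads the AGR2 level under vehicle was 2.01 times that under TGFβ1 (counting interval 1.89 to 2.13), and leaving out 1 library at a time the log2 fold change stayed between -1.02 and -0.98.

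Of the trefoil genes, TFF3 was called lower by DESeq2 (log2 fold change -0.42, adjusted p = 0.0229) and by no other alternative. Without the third vehicle library, its highest at 692.8 normalized counts, the TFF3 estimate was -0.27. That library also held the highest TFF1 and TFF2 values of its group. Pooled over libraries, the vehicle level was 1.36 times the TGFβ1 level for TFF3 (1.26 to 1.46), 1.54 times for TFF2 (1.31 to 1.83) and 1.42 times for TFF1 (1.02 to 2.00). With reads halved, the interval of TFF1 included 1 (0.864 to 2.29), and those of TFF2 (1.21 to 1.95), TFF3 (1.223 to 1.51) and AGR2 (1.85 to 2.18) did not. These intervals cover counting error only and leave out the spread between libraries.

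**Figure D2:**
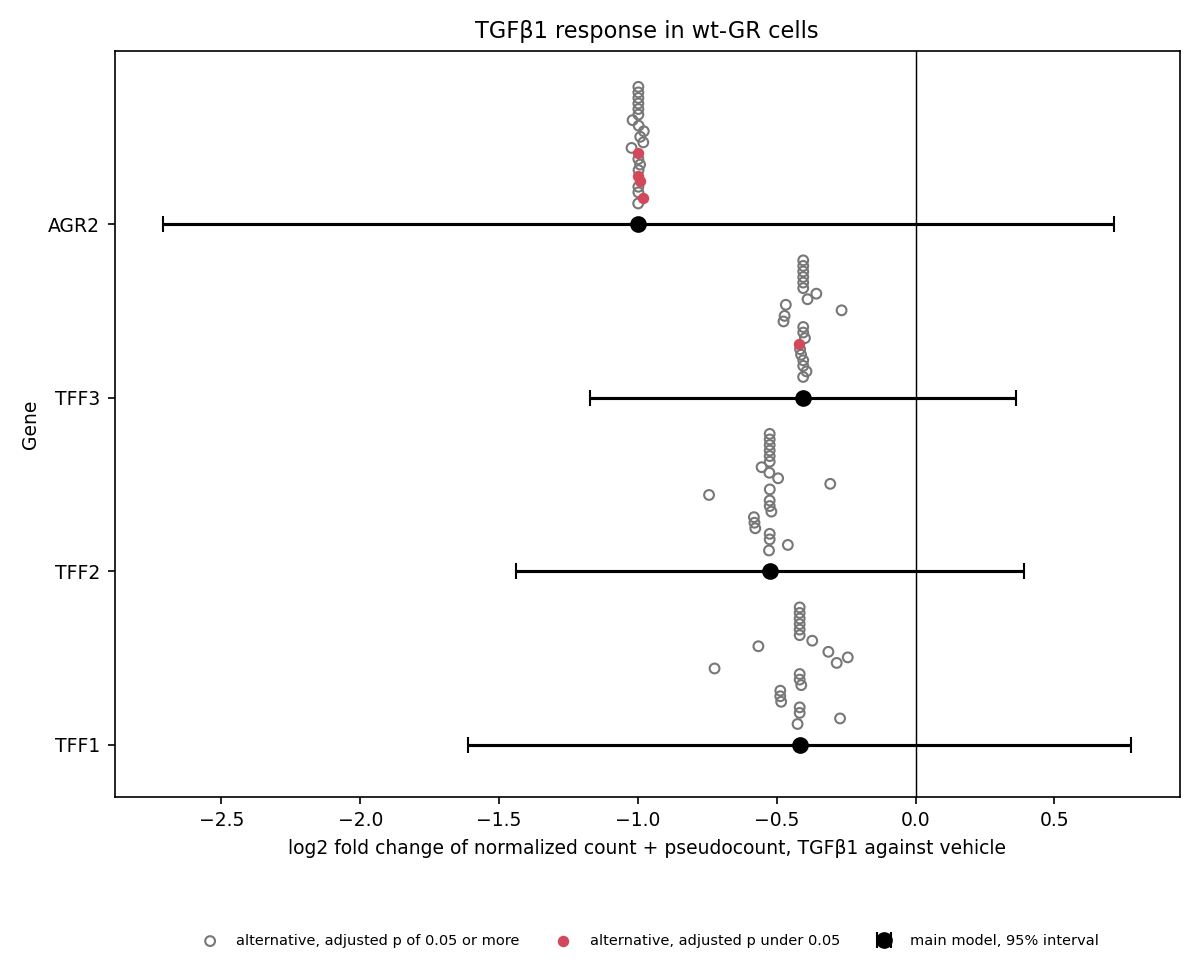
Log2 fold change of each gene under TGFβ1 against vehicle in wt-GR cells, 3 libraries a group. Black points are the main model with 95% intervals, all of which include 0, and the small points above each are the estimates of the 22 alternative settings. Filled red points, 4 for AGR2 and 1 for TFF3, are the settings with an adjusted p under 0.05.

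In S134A-GR cells, where TGFβ1 lowered 8.69% and raised 10% of all genes, 19 of the 24 values of these genes were at or under 3 reads. All 4 genes passed the filter of 10 reads over the 12 libraries, TFF2 and TFF3 only through the wt-GR libraries. With 2 reads each over the 6 S134A-GR libraries, their response there could not be tested. AGR2 had a log2 estimate of -1.001 (adjusted p = 0.452) from 24 reads under vehicle and 8 under TGFβ1. Without the second vehicle library, which held no AGR2 read, AGR2 was called lower at -2.17 (adjusted p = 0.0191). A difference in response between the lines was called for 0.414% of all genes (77 of 18579). For AGR2 the interval of that difference ran from -2.42 to 2.42 on the log2 scale, and for TFF2 and TFF3 the reads in S134A-GR cells allowed no test of it.

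Genes around the trefoil cluster were examined because position had not been used to choose the group. Of the 20 nearest listed genes, 10 on each side and up to 842 kb and 726 kb away, 19 were tested. Under vehicle 4 were called lower and 0 higher in S134A-GR cells, against 4.45% lower over all genes, and under TGFβ1 the count was also 4 lower and 0 higher, against 4.58%. The 4 genes were called in every alternative setting. Both genes adjacent to the cluster were among them, TMPRSS3, 5.35 kb beyond TFF1, and ABCG1, 14.4 kb beyond TFF3.

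TMPRSS3, which encodes a membrane serine protease, was at 57.0, 66.6 and 53.7 normalized counts in wt-GR vehicle and at 0 in all 3 S134A-GR vehicle libraries, at least 62.7-fold lower by the limit of 3 reads (exact interval from 50.4, and from 24.7 with reads halved). Its log2 fold change was -5.90 under vehicle and -5.04 under TGFβ1. ABCG1, a cholesterol transporter, was at 24.4, 27.5 and 14.7 in wt-GR vehicle and held 1 read in the S134A-GR vehicle libraries, with a log2 fold change of -4.19 under vehicle and -4.61 under TGFβ1.

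The remaining called genes lay farther out. PDE9A, a cyclic GMP phosphodiesterase gene 287 kb beyond TFF1, was at 86.0 ± 18.6 normalized counts in wt-GR vehicle and 1.69 ± 2.93 in S134A-GR vehicle. TMPRSS2, another membrane serine protease gene, 781 kb beyond TFF3, was at 87.0 ± 17.6 and 1.54 ± 1.43 (mean ± SD, n = 3). Between them and the cluster lay tested genes that were not called, at 36.9 to 545 kb. The nearest, UBASH3A, was at 0.351 normalized counts in wt-GR vehicle. Among those not called were RIPK4 (log2 fold change -0.68 under vehicle, under the limit of 1), SLC37A1 (-0.35), ZBTB21 (-0.07) and C2CD2 (0.02). The called genes on each side were thus separated by uncalled ones. The median log2 fold change of the 19 tested genes was -0.35 under vehicle, against 0.02 over all genes. UBASH3A, RIPK4, SLC37A1, ZBTB21 and C2CD2 were chosen for naming after their values were seen.

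Around AGR2 and AGR3, 18 of the 20 nearest listed genes were tested, and 1 was called lower under vehicle, SCIN at 4132 kb, with a log2 fold change of -2.68. The median log2 fold change of these 18 genes under vehicle was -0.33, close to the -0.35 around the trefoil cluster. The genes adjacent to the pair did not pass the fold limit. TSPAN13, 7.28 kb beyond AGR2, was at 443 ± 33.8 normalized counts in wt-GR vehicle and 317 ± 6.64 in S134A-GR vehicle (log2 fold change -0.48). AHR, the aryl hydrocarbon receptor gene 34.4 kb beyond AGR3, was at 4646 ± 234 and 3039 ± 95.3 (log2 fold change -0.61). Under TGFβ1, SCIN (-4.06) and AGMO (-2.12) were called lower and ITGB8 (1.42) higher, and the AGMO call, at 27 reads against 5, was lost in 10 of 21 alternatives, among them those without the wt-GR vehicle library 2, the wt-GR TGFβ1 library 1 or 3, or the S134A-GR TGFβ1 library 2 or 3, where the count lower was 1.

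**Figure D3:**
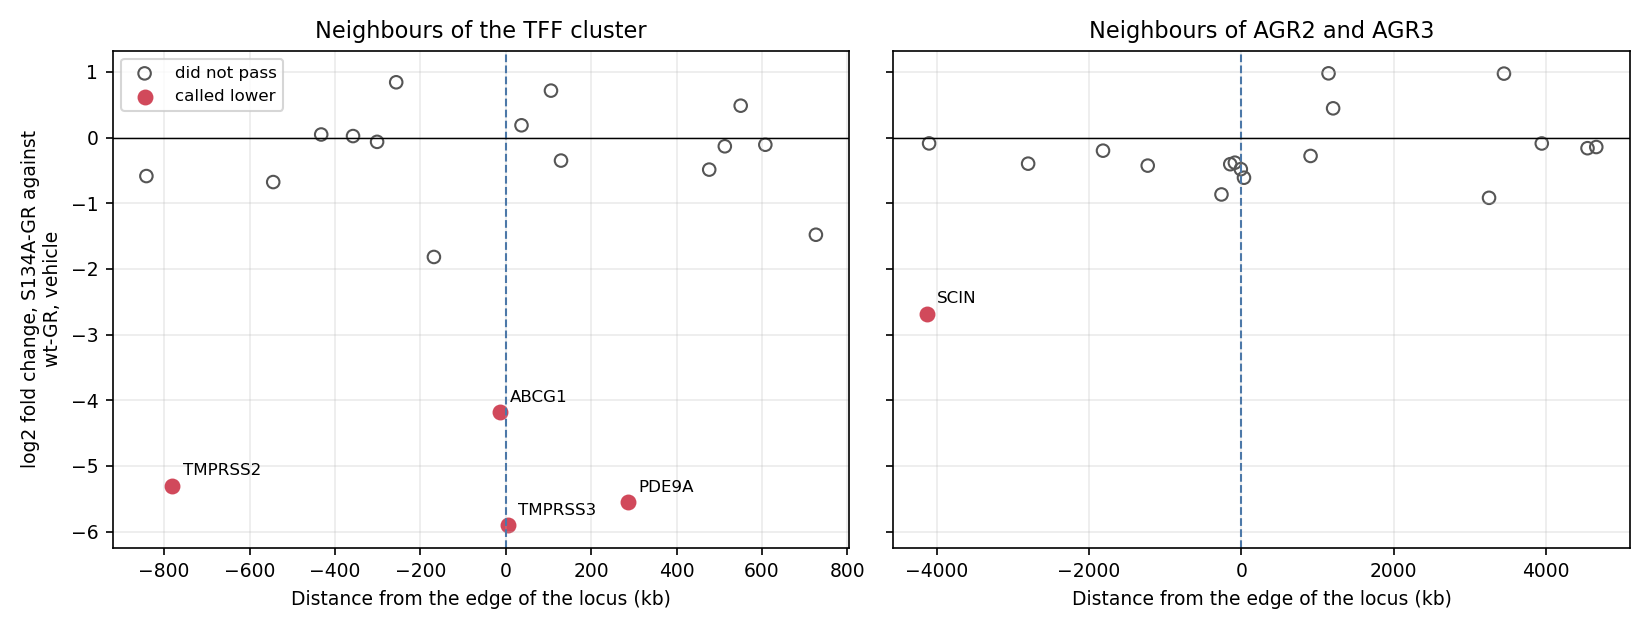
Log2 ratio between the lines (S134A-GR over wt-GR) under vehicle for the tested neighbours of each locus, plotted by distance in kb from its edge (dashed line). Filled points were called lower. Near the trefoil cluster, ABCG1, TMPRSS3, PDE9A and TMPRSS2 lie between -4.19 and -5.90, and near AGR2 and AGR3 only SCIN was called lower.

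Lists of genes that work with these proteins held 122 listed genes, of which 113 were tested. Under vehicle 13 were called lower and 7 higher in S134A-GR cells, and under TGFβ1 16 and 5. Over all genes the shares were 4.45% lower and 5.06% higher under vehicle, and 4.58% and 3.88% under TGFβ1. Trefoil factors are secreted with mucins, and of 12 secreted mucins and mucus partners, 8 were listed and 5 tested. MUC5AC, the gel-forming mucin of the stomach surface that is stored with TFF1, had a log2 fold change of -7.50 under vehicle (SE 0.589, adjusted p = 1.32e-07), and MUC5B, a gel-forming mucin of the airways, was also called lower, with -2.65. MUC5AC was at 813.1, 279.0 and 247.4 normalized counts in wt-GR vehicle, at 134.4, 107.6 and 164.0 in wt-GR TGFβ1, and held 5 and 3 reads in the S134A-GR vehicle and TGFβ1 groups. Its first wt-GR vehicle library thus stood well above the 2 others, and its log2 estimate of -1.51 under TGFβ1 in wt-GR cells did not pass the test.

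The remaining tested genes of this list moved in both directions. GKN2, a gastrokine of the stomach lining, had 11 reads in wt-GR vehicle and 21 in wt-GR TGFβ1 and 0 in S134A-GR cells, with a log2 fold change of -1.84 under vehicle that did not pass (adjusted p = 0.0520) and one of -2.64 under TGFβ1 that did (adjusted p = 0.00894). It was named after its values were seen. DMBT1, a secreted scavenger receptor that binds trefoil factors, was called higher in S134A-GR cells under vehicle, with 1959 normalized counts in wt-GR and 4777 in S134A-GR cells (log2 fold change 1.29, adjusted p = 3.76e-10). FCGBP, an IgG Fc-binding protein of mucus, was also called higher (1.27). Both fell under TGFβ1 in wt-GR cells, by 1.14 for DMBT1 and by 0.88 for FCGBP on the log2 scale, and the fall of DMBT1 was smaller in S134A-GR cells (difference 0.56, adjusted p = 0.00717). MUC6, MUC19 and GKN1 were at or under 3 reads in every library. Of the membrane mucins, MUC15 was called lower (-5.20 under vehicle, 72.7 ± 6.39 against 1.222 ± 1.06 normalized counts) and MUC1 higher (1.23), and MUC3A, MUC4 and MUC16 were at or under 3 reads throughout.

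Among 9 proposed receptors of trefoil factors and AGR2, 3 were called lower and 2 higher under vehicle, against 4.45% and 5.06% of all genes. The protease-activated receptor genes F2RL1 and F2RL3 were lower by log2 fold changes of -1.12 and -1.25, and ACKR3, an atypical chemokine receptor gene, was higher by 2.74 at low counts (4.99 ± 1.33 in wt-GR and 38.6 ± 4.75 in S134A-GR cells). F2RL3 fell under TGFβ1 in both lines, with log2 fold changes of -1.498 in wt-GR and -2.16 in S134A-GR cells. The test of that difference (-0.66, adjusted p = 0.0259) was lost in 10 of 22 alternatives, with the replicate block and when any 1 library was left out other than the third wt-GR vehicle, the third S134A-GR vehicle and the first S134A-GR TGFβ1 library, up to an adjusted p of 0.0863. EGFR and DAG1, at 15379 and 28996 normalized counts in S134A-GR vehicle, had log2 fold changes of -0.11 and -0.33 between the lines and were not called.

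AGR2 belongs to the protein disulfide isomerase family, whose other genes were compared between the lines. Of 20 tested relatives 0 were called in either direction under vehicle by limma, with a median log2 fold change of -0.19 (all genes 0.02). The count was also 0 by an unadjusted p under 0.05, by edgeR and by DESeq2, each with the same fold limit of 1. By the adjusted p of limma alone, more relatives passed as lower than as higher. DNAJC10 (-0.69, adjusted p = 1.57e-08) was among the lower, and ERP29 (0.30, adjusted p = 3.01e-05) and ERP44 (0.19, adjusted p = 0.00223) were the higher. P4HB, the founding isomerase, was at 124342 normalized counts in wt-GR and 99774 in S134A-GR cells, and PDIA6 had the largest difference of the abundant members, -0.88, under the limit of 1. Under TGFβ1, ERP27 alone was called lower between the lines (-1.45), from 36.6 and 13.0 normalized counts, and was named after its values were seen. Of 8 oxidation partners, such as ERO1A and QSOX1, 0 were called between the lines under either treatment by limma. The count was likewise 0 without adjustment, by edgeR and by DESeq2, each with the fold limit of 1 kept. Without that limit, ERO1A was lower (-0.34, adjusted p = 1.18e-05) and QSOX1 higher (0.25, adjusted p = 3.99e-05) in S134A-GR vehicle by limma.

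Responses of this family to TGFβ1 were small. In wt-GR cells 2 members were called higher, PDIA3 and TMX2, each by 0.16 on the log2 scale, and the PDIA3 call was lost without the second wt-GR TGFβ1 library (adjusted p = 0.0555). In S134A-GR cells 3 were called higher, by 0.11 to 0.22, and each lost its call in at least 4 of 22 alternatives. For AGR2 itself, 3.36% of all genes had a lower estimate in wt-GR cells than its -0.999.

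The unfolded protein response governs the endoplasmic reticulum chaperones that AGR2 works beside. Of its sensors and targets, 0 of 15 were called between the lines under vehicle by limma, without adjustment, by edgeR or by DESeq2. Each of these counts kept the fold limit of 1. By the adjusted p of limma alone, most of the 15 were lower, among them HYOU1 (-0.98, adjusted p = 1.05e-10) and XBP1 (-0.77, adjusted p = 9.61e-09). ATF6 was higher (0.18, adjusted p = 0.00223), and CANX did not pass (0.05, adjusted p = 0.273). Over all 18579 genes, 4918 were lower and 4651 higher without the fold limit. HYOU1 was called lower under TGFβ1 (-1.01, close to the limit of 1, and lost without the third wt-GR or the third S134A-GR TGFβ1 library). The list's median log2 fold change was -0.30 under vehicle. In wt-GR cells TGFβ1 raised 5 of the 15 and lowered 1, against 11.2% and 9.82% of all genes. HSPA5, the chief chaperone of the compartment, rose by 0.25, XBP1 by 0.26 and HERPUD1 by 0.27, and the sensor gene ERN1 fell by 0.48 on the log2 scale. In S134A-GR cells 0 of the 15 were called by limma and by edgeR, 1 by DESeq2, and 4 had an unadjusted p under 0.05. The difference between the lines was called for 0 of the 15 by limma, edgeR or DESeq2, with 5 at an unadjusted p under 0.05.

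EPCAM, an epithelial surface protein that AGR2 helps to mature, was called lower in S134A-GR cells among 10 binding partners and induced ligands, at 1024 ± 64.6 normalized counts in wt-GR and 378 ± 51.7 in S134A-GR vehicle. The ligand genes AREG and EREG did not differ between the lines by the call, and both fell under TGFβ1 in wt-GR cells, by 0.65 and 0.74 on the log2 scale.

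**Figure D4:**
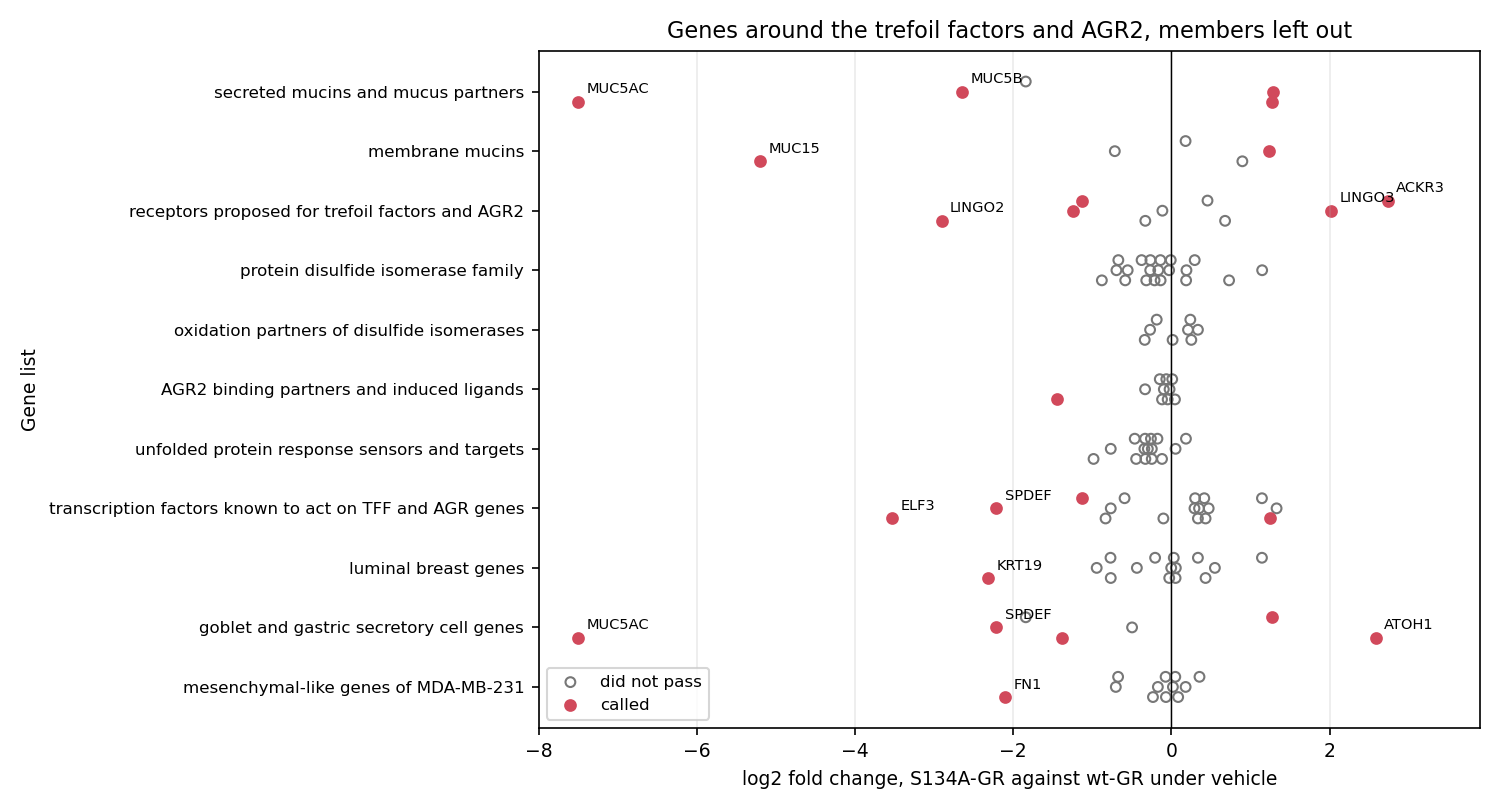
Log2 ratio between the lines (S134A-GR over wt-GR) under vehicle for the tested genes of 11 lists, 1 point a gene. Filled points were called, and those beyond 2 in either direction are named. MUC5AC (-7.50) and MUC15 (-5.20) lie farthest from 0, and none of the disulfide isomerases, their oxidation partners or the unfolded protein response genes was called.

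Of 20 transcription factors known to act on trefoil or AGR genes, 17 were listed and tested. Under vehicle 3 were called lower and 1 higher in S134A-GR cells, against 4.45% and 5.06% of all genes. The median log2 fold change of the list was 0.30. SPDEF, the goblet cell factor that activates AGR2 and TFF genes, was at 1030, 1107 and 1052 normalized counts in wt-GR vehicle and at 259.2, 212.9 and 216.5 in S134A-GR vehicle, a log2 fold change of -2.21 (SE 0.115, adjusted p = 2.34e-09). Under TGFβ1 the SPDEF estimate in wt-GR cells was -0.03, at 1044 ± 40.1 normalized counts. A link between SPDEF and the levels of AGR2 or the trefoil genes was not tested.

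ELF3, an epithelial ETS factor, was lower in both comparisons. It was at 153.2, 190.2 and 173.7 normalized counts in wt-GR vehicle, at 14.4, 22.7 and 19.4 in wt-GR TGFβ1, and at 11.3, 14.2 and 16.9 in S134A-GR vehicle. It fell under TGFβ1 by 3.14 on the log2 scale in wt-GR cells (adjusted p = 2.67e-05) and its log2 ratio between the lines was -3.53 under vehicle (adjusted p = 2.34e-06). TFAP2C, a factor of luminal breast cells, was called lower in S134A-GR vehicle (-1.13) and fell under TGFβ1 by 1.44 in wt-GR and by 1.10 in S134A-GR cells.

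ESR1 and its forkhead and GATA partners were not called between the lines. ESR1, the estrogen receptor gene, held 2, 20, 10 and 11 reads over the wt-GR vehicle, wt-GR TGFβ1, S134A-GR vehicle and S134A-GR TGFβ1 groups, and PGR was not listed in the tables used here. FOXA1 (0.34) and GATA3 (0.43) were not called between the lines, and XBP1, at 8455 and 4964 normalized counts, had a log2 fold change of -0.77 that did not reach the limit. FOXA2 fell under TGFβ1 by 0.62 and 0.60 in the respective lines. Over the list, TGFβ1 lowered 5 of 17 factors in wt-GR and 7 in S134A-GR cells and raised 3 and 1. Over all genes, 9.82% were lowered and 11.2% raised in wt-GR cells, and 8.69% and 10% in S134A-GR cells. The difference was called for 0 of the 17 by limma, edgeR or DESeq2, with 3 at an unadjusted p under 0.05.

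**Figure D5:**
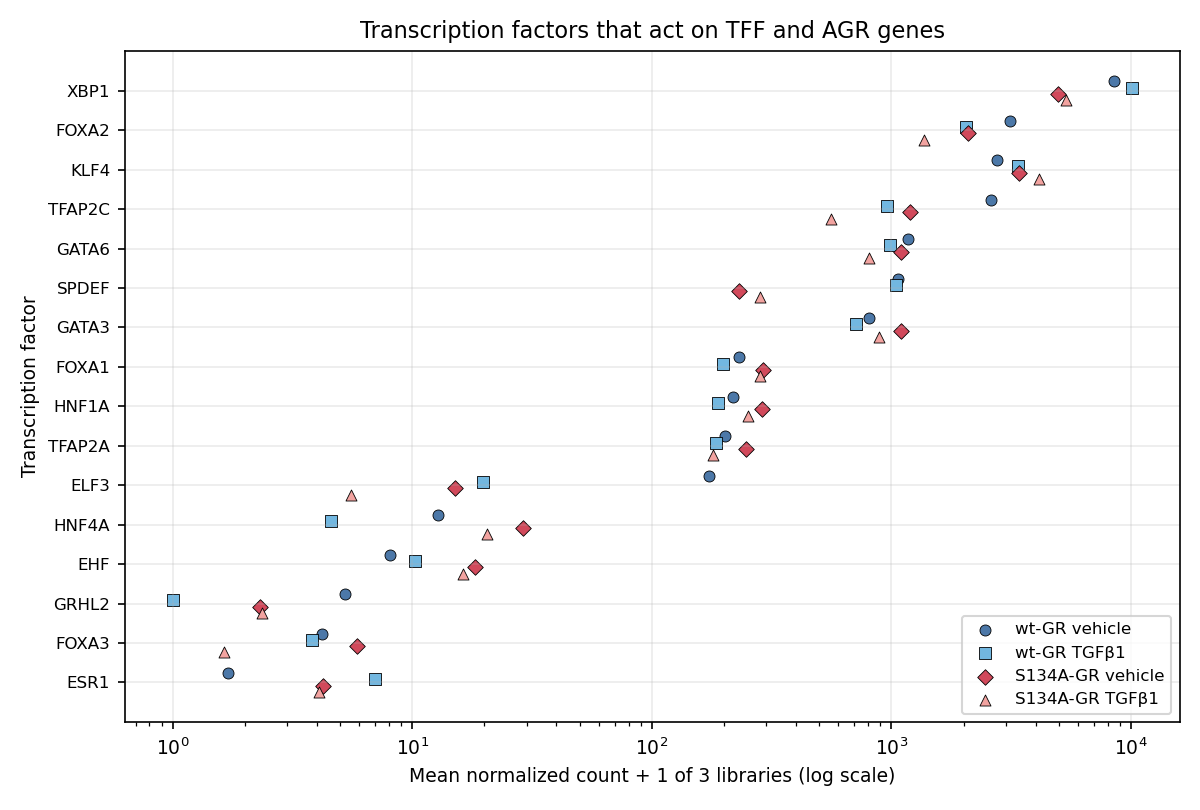
Mean normalized count plus 1 (log scale) of 16 of the 17 listed transcription factors in the 4 groups, 3 libraries each. SPDEF separates the lines and hardly moves with TGFβ1, ELF3 is highest in wt-GR vehicle and low in the other groups, and ESR1 lies below 10 in every group.

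As these genes mark secretory and luminal cells, markers of those cells were read beside them. Of 9 listed goblet and gastric genes other than the trefoil factors and AGR2, 7 were tested. In S134A-GR vehicle 3 of the 7 were called lower and 2 higher, against 4.45% and 5.06% of all genes. The summed level of the 9 genes lay between 1486 and 2073 normalized counts in wt-GR vehicle, 1238 and 1346 in wt-GR TGFβ1, 624 and 714 in S134A-GR vehicle, and 501 and 638 in S134A-GR TGFβ1. MUC2, CLCA1 and ZG16 were not listed in the tables used here, and MUC6 and GKN1 were at or under 3 reads in every library. Of 15 luminal breast genes, 1 was called lower, KRT19 (-2.31), and the summed level was between 146587 and 154590 in wt-GR vehicle, 156148 and 164953 in wt-GR TGFβ1, 129180 and 135312 in S134A-GR vehicle, and 124171 and 136847 in S134A-GR TGFβ1. Between the lines both sums were lower in S134A-GR cells under either treatment, as were the trefoil genes and AGR2, and their part in the result was not tested. A sum weighs abundant genes most, and the luminal genes moved in both directions. CA12 was at 20103 in wt-GR vehicle and 10449 in S134A-GR vehicle, and GATA3 at 808 and 1093. The median log2 fold change between the lines under vehicle was -0.0018 for the luminal list and -1.38 for the goblet and gastric list. Under TGFβ1 in wt-GR cells the luminal sum was higher than under vehicle in every library, whereas the estimates of the trefoil genes and AGR2 were negative. Among the mesenchymal-like genes FN1 was called lower (-2.10) and the other 11 were not called under vehicle. TGFβ1 raised 7 of these 12 genes in wt-GR cells, among them PLAU (1.12), and 8 in S134A-GR cells, with a smaller rise of PLAU (difference -0.54, adjusted p = 0.000909). Over all genes, 11.2% were raised in wt-GR and 10% in S134A-GR cells.

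The genes whose pattern over the 12 libraries was most like that of TFF3, among 13702 genes, were PDE1C (Pearson r = 0.999), MCAM, SLITRK1, SORBS2 and CYP2J2 (r of 0.995 to 0.996). SLITRK1 was at 650 ± 69.4 normalized counts in wt-GR vehicle, and neither it nor CYP2J2 had a read in any S134A-GR library, at least 677-fold and 133-fold lower under vehicle by the limit of 3 reads (exact intervals from 549.6 and 107.9, and from 274 and 53.5 with reads halved). The genes most like AGR2 were MUC15 (r = 0.991), MT1F, FBP1, SERPINF1 and SLC25A15 (0.982 to 0.986). These libraries fall into 2 lines, so that genes that differ strongly between the lines have a high r, and 964 genes exceeded 0.95 with TFF3 and 347 with AGR2. With a pseudocount of 16, only 1 of the 5 named genes stayed among the 5 most alike for TFF3, and 1 for AGR2.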

How the data were processed

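RNA-seq of 12 libraries, 3 in each of 4 groups (2 clones of MDA-MB-231, each under vehicle or TGFβ1), was used as deposited. Per the submitters' notes and the study's methods, TruSeq mRNA libraries were sequenced in 75-base paired-end mode, checked with FastQC 0.11.7, trimmed with Trimmomatic, aligned to hg38 with HISAT2 and counted per gene with featureCounts. The annotation, the strand setting and the treatment of mates are not given in the sources used here. The deposited signal of each library is the count per gene that the authors divided by a DESeq2 (1.22.2) size factor. All values were whole multiples of 1 step per library (tolerance 0.1 read), which gave back the whole reads, 56362036 to 129832227 per library.

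The main test was limma 3.58.1 (R 4.3.3) on log2-transformed normalized counts (pseudocount 1), with 4 group means, an intensity trend and Benjamini-Hochberg adjustment over the 18579 genes with at least 10 reads over the 12 libraries. Genes were called at an adjusted p under 0.05, and between the lines also required a log2 fold change of 1 or more in size. Fold changes on this scale understate the change of low genes. Alternatives were pseudocounts of 0.5 and 16, other filters, edgeR 4.0.16, DESeq2 1.42.0, TMM scaling, a replicate block, only the groups compared, each library left out, and other fold limits. The fits were tested on simulated data. Counting intervals are exact, at 95%, and cover counting error only.

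Members and lists were chosen with earlier results of these data known. Named were all members, up to 4 called genes per list with the largest change and a mean of at least 50 normalized counts in 1 group, marker genes at or under 3 reads, adjacent and called genes among the 10 nearest on each side (GENCODE 44), the 5 genes most like TFF3 and AGR2, and NR3C1. Other genes were named for background or as counts of 5 or fewer, after their values were seen. Single values of some list genes are not reported here.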

Additional observations from a re-analysis of the deposited data

How the results depend on the processing

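Over 22 alternatives the estimates of all 4 genes under TGFβ1 in wt-GR cells kept their negative sign. AGR2 passed the threshold at -0.98 with a pseudocount of 16, -0.99 with edgeR and TMM, -0.9981 with edgeR and RLE, and -0.999 with only the groups compared, and TFF3 at -0.42 with DESeq2. The count of these genes lower in wt-GR cells was therefore 1 in place of 0 under these 5 settings, and in S134A-GR cells 0 to 1 over single left-out libraries, 1 (AGR2) without the second vehicle library. Leaving out 1 library gave -0.72 to -0.24 for TFF1, -0.74 to -0.31 for TFF2, -0.48 to -0.27 for TFF3 and -1.02 to -0.98 for AGR2. The difference in AGR2 response changed sign from -0.0024 to 0.67 with a pseudocount of 16, and over single left-out libraries it ran from -1.17 to 0.83, being positive at 0.022, 0.018, 0.83, 0.34, 0.67 and 0.028. These values rest on S134A-GR libraries of 0 to 16 reads.

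Same-numbered libraries were not treated as paired, as they showed no shared deviation (18 pairs over 13281 genes, mean r of their deviations 0.000251, from -0.105 to 0.128). These values cannot show whether they were prepared together. With the replicate block AGR2 stayed at -0.999 (adjusted p = 0.333) and TFF3 at -0.40 (adjusted p = 0.481), and no count of these genes moved.

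Over all genes, the counts lower and higher in S134A-GR cells went from 826 and 941 under vehicle to 516 and 424 with a pseudocount of 16 and to 4918 and 4651 at any fold change, and under TGFβ1 from 851 and 720 to 487 and 318, and to 4772 and 4298. Where a log2 fold change of 1.5 or more in size was also required, TGFβ1 lowered 94 and raised 137 genes in wt-GR cells (1824 and 2086 in the main model) and 74 and 81 in S134A-GR cells (1615 and 1860). Genes with a difference in response numbered 77, against 208 with DESeq2 and 22 to 166 with 1 library left out, the highest without the third wt-GR vehicle library and the lowest without the first wt-GR TGFβ1 library. List genes called lower between the lines under TGFβ1 were 16, against 9 with a pseudocount of 16. In S134A-GR cells TGFβ1 lowered 17 list genes, against 11 with only the groups compared and 11 to 18 with 1 library left out, and raised 17, against 11 to 19, the lowest without the third S134A-GR vehicle library. The 11 lowered were without the first or second S134A-GR vehicle or the second S134A-GR TGFβ1 library. Neighbours of AGR2 and AGR3 lower under TGFβ1 were 2, against 1 with a pseudocount of 0.5 or 16, filterByExpr, edgeR with TMM or RLE and DESeq2, and 1 to 2 with 1 library left out. Of 121 results for single named genes, 96 kept their call in every alternative and 0 changed sign.

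Each line is 1 clone, AGR3 was not analysed, and at 0 to 16 reads per library a response of the 4 genes in S134A-GR cells could not be measured at this depth.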
